A study of Mus musculus with 6 samples.

Results

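The 43 genes described here make up the glutathione and thioredoxin systems, the enzymes that remove peroxide and superoxide, and the NADPH oxidase, as measured in RAW264.7, a murine monocytic cell line from which osteoclast-like cells can be grown with RANKL. They were taken from a list of gene names and not by their response. Of the 43, 42 were matched to a measured gene among the 18193 genes of the arrays, and the expression of Prdx5 is not analysed here. Cells spent 24 hours in normal medium, where sodium was 137 mmol/l (normal sodium, 3 arrays), or in diluted medium, where it was 120 mmol/l and mannitol kept the osmolality at 290 mOsm/l (low sodium, 3 arrays). The cytokines M-SCF (spelled as in the labels, 10 ng/ml) and RANKL (30 ng/ml) stand beside the low-sodium medium in the labels, which do not settle whether the normal-sodium cultures had them too. All cultures come from 1 low-passage line and not from primary osteoclasts, and of the 4 biological replicates that the labels give per group 3 are used here.

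Glutathione and thioredoxin are the 2 thiol systems that keep the cytosol reduced, and both draw their electrons from NADPH. Peroxiredoxins and glutathione peroxidases use these electrons to remove peroxide, and many of the genes are targets of NRF2, a transcription factor that KEAP1 holds down until electrophiles or oxidants modify it. The phagocyte NADPH oxidase works the other way: it spends NADPH to make superoxide, and in osteoclast precursors reactive oxygen made after RANKL takes part in signalling.

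Values are intensities on a log2 scale after adding 1, with 1 probe set per gene. The replicate 3 arrays of both media stood apart from the other 4. Transcripts spiked in before labelling had a mean log2 intensity of 10.34 in replicates 1 and 2 but 8.52 in replicate 3, while spikes added at hybridisation had 12.35 and 12.45. Differences are therefore given separately for replicates 1 and 2 and for replicate 3, which holds 1 array of each medium. All 7 markers of macrophages and osteoclast precursors were bright, which here means a mean log2 value no lower than 5.87, the median over probe sets. Adgre1, an adhesion receptor gene of mature macrophages, rose by 0.96 ± 0.10 in low sodium in the batch-term fit defined below (limma adjusted p = 0.00320), and the other 6 did not pass. Of the 5 osteoclast markers 4 (Ctsk, Dcstamp, Atp6v0d2 and Mmp9) rose in low sodium in the same fit, and the mean of the 5 was at most 8.38 on normal-sodium arrays and at least 9.01 on low-sodium arrays. The part of these shifts in the values below was not tested. List means of T cell, B cell, fibroblast or osteoblast and epithelial markers lay between 3.63 and 6.71 on all arrays. Of the B cell markers only Cd79a was measured. By their means over the 6 arrays Cd8a (6.51), Col1a2 (6.79), Alpl (6.30) and Epcam (7.14) were bright too, beside 7.24 for the osteoclast marker Acp5. A bright marker thus does not by itself show that its cell type is present.

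The sequences before the start sites of Txnip and Srxn1 are shown because these 2 genes are the members whose calls were also kept with the replicate number as a block (below). They are the 250 bases before the RefSeq start site in GRCm38.p6, on the strand of the gene. In the Txnip sequence (chr3:96557707-96557956, plus strand) capitals mark a pair of E-box-like letters of the carbohydrate response element kind, to which MondoA and ChREBP bind with MLX. In the Srxn1 sequence (chr2:152105274-152105523, plus strand) capitals mark the core letters of an antioxidant response element, the DNA element of NRF2, on either strand.
Txnip: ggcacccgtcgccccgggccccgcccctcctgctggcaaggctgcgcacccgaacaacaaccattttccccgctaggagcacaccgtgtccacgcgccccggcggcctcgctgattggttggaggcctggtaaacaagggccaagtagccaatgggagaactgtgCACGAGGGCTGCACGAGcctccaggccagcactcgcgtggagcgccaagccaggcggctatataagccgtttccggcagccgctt
Srxn1: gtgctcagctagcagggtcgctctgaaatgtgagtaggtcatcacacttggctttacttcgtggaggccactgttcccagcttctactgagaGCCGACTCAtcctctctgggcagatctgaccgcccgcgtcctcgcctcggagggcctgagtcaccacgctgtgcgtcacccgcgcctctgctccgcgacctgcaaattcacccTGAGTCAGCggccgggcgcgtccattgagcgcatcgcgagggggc
The E-box pair was searched as CACGNG, 5 bases of any kind and CACGNG again, on both strands, and 15 of 32851 windows of this length before all annotated start sites hold it (0.0457%). Txnip was the 1 member of 37 with a window that held it, and these 37 include Prdx5. The antioxidant core was searched as TGACNNNGC or TGAGNNNGC on both strands, and it is common, since 23.0% of all windows and 26.0% of the members' 50 windows hold at least 1. These 13 windows belong to 12 of the 37 members. Of the 2 cores of Srxn1 the one nearer the start site overlaps the AP-1 letters TGANTCA, which 6.75% of windows hold. Further cores are shown on the strand on which they read, with their flanks in lower case, for the other members that hold one and whose value on each array is given below. Gstm5, Gstt1, Gstz1, Txn2 and Taldo1 hold a core too. Gclc, Gsr, Gsta4, Gstt2, Ncf4 and Rac2 had no window and were not searched.
Nfe2l2 (chr2:75704875-75704913): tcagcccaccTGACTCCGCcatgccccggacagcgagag
Gclm (chr3:122245403-122245451): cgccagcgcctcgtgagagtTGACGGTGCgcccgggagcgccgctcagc
Txnrd1 (chr10:82859094-82859142): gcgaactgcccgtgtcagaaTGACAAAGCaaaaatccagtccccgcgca
Gstp1 (chr19:4037958-4038006): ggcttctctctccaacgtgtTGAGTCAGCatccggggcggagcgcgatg
Gstp1 (chr19:4037913-4037941): TGAGGACGCacgcgtaggccaccgggccg
Mgst1 (chr6:138140451-138140499): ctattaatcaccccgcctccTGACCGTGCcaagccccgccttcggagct
Sod1 (chr16:90220686-90220734): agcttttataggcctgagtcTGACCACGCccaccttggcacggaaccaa
Of the 2 cores of Gstp1 the first shown overlaps the AP-1 letters, and the other, next to the start site, does not. A match is a description of letters in these windows and says nothing of which factor is bound in these cells.

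The first question was how many of these genes differed between the media. Differences were small, and 0 of 42 members passed the plain limma test of low against normal sodium, which called 0.00550% of all genes (adjusted p under 0.05), while 0 of the 42 and 1483 of all genes had an unadjusted p under 0.05. The second fit adds a term for replicate 3 against replicates 1 and 2 and lets the variance prior follow the intensity (the batch-term fit). It called 8 members, or 19.0%, against 7.60% of all genes. All 8 were bright, and among bright genes it called 22.9% of the 35 members and 12.5% of all. Nfe2l2, Glrx, Txnip, Srxn1 and Ncf4 rose, with 3.78% of all genes called in that direction. Gsr, Prdx4 and Rac2 fell, with 3.81% called in that one. Rose and fell refer to this fit, which an earlier analysis of these arrays took up after counts of calls had been seen. With a constant prior it called 0 members, with median centring of the arrays it called Txnip alone (3.62% of all genes), with the mean of all probe sets of a gene it called Nfe2l2, Txnip, Srxn1 and Ncf4 (4.52%), and with the replicate number as a block it called 2 (2.99% of all genes), Txnip and Srxn1 (adjusted p = 0.0242 and 0.0497), the other 6 having adjusted p from 0.0688 to 0.0843. Without either array of replicate 1 or 2 it called Txnip as the 1 member, or 2.38% of them, and 2.05% to 2.54% of all genes. Without either array of replicate 3 it called 21 of the 42 members, where 14.6% and 14.7% of all genes were called. The 3 differences between same-numbered arrays were all positive in 15 of the 42 members and all negative in 9. Over all 18193 genes they were so in 3642 and 3763, or 40.7% with 1 sign throughout. Over the 10880 bright genes they were so in 2617 and 2910, a larger share. Since 35 of the 42 members were bright, no result about the members is drawn from these counts. The largest and smallest of the 8 differences were 1.46-fold for Txnip and 1.26-fold for Nfe2l2.

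**Figure D1:**
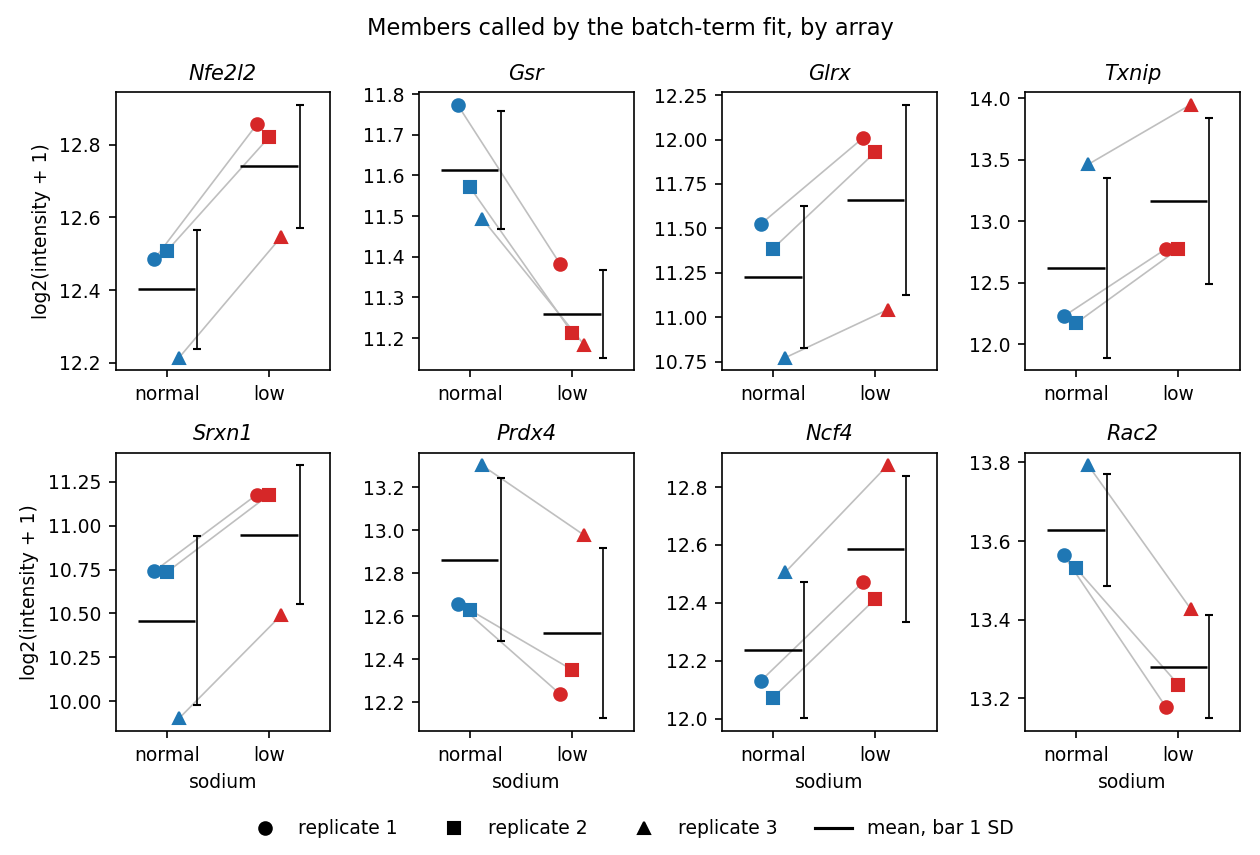
Log2(intensity + 1) on each of the 6 arrays for the 8 members called by the batch-term fit, with the group mean (line) and 1 SD (bar); grey lines join arrays of the same replicate number, and each panel has its own axis. In every panel the 3 joining lines run in 1 direction, and in Txnip the replicate 3 arrays (triangles) lie above the others by more than the media differ.

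Nfe2l2, the gene of NRF2 itself, had log2 intensities of 12.49, 12.51 and 12.21 on the normal-sodium arrays of replicates 1, 2 and 3 and 12.86, 12.82 and 12.55 on the low-sodium arrays. Every low-sodium array lay above every normal-sodium array. The gene rose by 0.34 ± 0.06 (SE, n = 3 against 3; limma adjusted p = 0.0156), by 0.34 in replicates 1 and 2 and by 0.33 in replicate 3. Its other probe set was dim and had a difference of 1.13, and with the mean of both probe sets the difference was 0.73 (limma adjusted p = 0.0499). Keap1, whose product presents NRF2 for degradation, had 10.57, 10.57 and 10.71 in normal sodium and 10.36, 10.40 and 10.22 in low sodium. The groups did not overlap and low sodium was the lower, but Keap1 did not pass the batch-term fit (difference of -0.29 ± 0.09, limma adjusted p = 0.104). Its other bright probe set had a difference of -0.31. Groups that did not overlap were found in 7 of the 42 members, or 16.7%, against 17.5% of all genes, which is no result about the members. Low sodium was the higher in 2 of the 7 (8.44% of all genes) and the lower in 5 (9.07%). Nqo1, an NRF2 target that reduces quinones, was dim in these cells, with a mean over the 6 arrays below the median of probe sets, and differed by 0.53 ± 0.40 without passing.

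Among the glutathione synthesis and reduction genes, Gsr, the reductase that returns oxidised glutathione to its reduced form, had 11.77, 11.57 and 11.49 in normal sodium and 11.38, 11.21 and 11.18 in low sodium. All low-sodium arrays lay below all normal-sodium arrays. Gsr fell by 0.35 on the log2 scale (SE 0.09), at the edge of the threshold (limma adjusted p = 0.0496, and 0.0520 with a pseudocount of 16), and its second probe set had a difference of -0.32. Gclc and Gclm, the catalytic and modifier subunits of the enzyme that limits glutathione synthesis, and Gss, which completes it, did not pass, with differences of 0.06, 0.26 and 0.17.

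Glrx, the cytosolic glutaredoxin that removes glutathione from protein thiols, had 11.52, 11.39 and 10.77 in normal sodium and 12.01, 11.93 and 11.04 in low sodium. The groups overlapped only through the replicate 3 arrays, which were the lowest of each group. Glrx rose by 0.43 ± 0.08 (limma adjusted p = 0.0235), by 0.51 in replicates 1 and 2 and 0.27 in replicate 3. Its second probe set gave 0.38 and 0.04. The mitochondrial Glrx2 did not pass (0.13 ± 0.10).

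None of the 10 measured glutathione transferase genes passed the batch-term fit. At an unadjusted p under 0.05 that fit held 2 of the 10 and 3955 of all 18193 genes, which is no result about the transferases. The groups did not overlap in Gstm1 alone, a cytosolic transferase, which had 9.73, 9.72 and 9.58 in normal sodium and 9.91, 9.97 and 11.42 in low sodium. The low-sodium array of replicate 3 stood far above the other 5, and the media differed by 0.22 in replicates 1 and 2 but by 1.83 in replicate 3. Its 3 other probe sets, all bright, had differences of 1.77, 1.52 and 0.61 in replicate 3 and of 0.12, 0.25 and -0.11 in replicates 1 and 2. Mgst1, a membrane-bound transferase, had 5.19, 2.81 and 4.41 in normal sodium and 5.84, 5.67 and 5.17 in low sodium. It was dim and its groups overlapped, and its difference of 1.43 ± 0.69 became 0.86 with a pseudocount of 16. Its other probe set, dim too, went the other way with -0.38, and with the mean of both the difference was 0.52. Among the other transferases the differences ran from -0.49 in Gstm5, which was dim, to 0.50 in Mgst3.

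In the thioredoxin system Txnip and Srxn1 rose, and Txn1, Txn2, Txnrd1 and Txnrd2 (the cytosolic and mitochondrial thioredoxins and their reductases) did not pass, with differences from -0.14 to 0.19. Txnip encodes an arrestin-like protein that binds thioredoxin and limits glucose uptake. It had 12.23, 12.17 and 13.46 in normal sodium and 12.78, 12.78 and 13.95 in low sodium. Low sodium was higher within each replicate number, and the replicate 3 arrays were the highest of their group, so the groups overlapped. Txnip rose by 0.55 ± 0.06 (limma adjusted p = 0.00344), by 0.58 in replicates 1 and 2 and 0.49 in replicate 3, and it was the 1 member whose call was kept without any 1 of the 6 arrays. Its second probe set gave 0.30 and 0.61.

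Srxn1 encodes sulfiredoxin, which repairs overoxidised peroxiredoxins. It had 10.74, 10.73 and 9.90 in normal sodium and 11.18, 11.18 and 10.49 in low sodium. Again the media differed the same way within each replicate number, while the replicate 3 arrays were the lowest of each group. Srxn1 rose by 0.49 ± 0.07 (limma adjusted p = 0.00986), and its 3 other probe sets, all bright, had pooled differences of 0.66, 0.56 and 0.55.

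Of the 10 measured genes for peroxide and superoxide removal 0 rose and 1 fell. Prdx4, the peroxiredoxin of the endoplasmic reticulum, had 12.66, 12.63 and 13.30 in normal sodium and 12.24, 12.35 and 12.98 in low sodium. The replicate 3 arrays were the highest of each group, and the groups overlapped. Prdx4 had a difference of -0.34 ± 0.06 (limma adjusted p = 0.0195), but the call rests on this probe set. Its 2 other bright probe sets had 0.11 and 0.13 in replicates 1 and 2 and -0.92 and -0.08 in replicate 3, or -0.24 and 0.06 over all arrays. With the mean of all 4 probe sets, of which 1 is dim, the difference was 0.03. Sod1, the cytosolic superoxide dismutase, had 13.05, 12.96 and 13.21 in normal sodium and 12.77, 12.83 and 12.72 in low sodium. The groups did not overlap, low sodium being lower, and the difference of -0.30 ± 0.08 did not pass (limma adjusted p = 0.0631). Its 3 other bright probe sets had differences of -0.27, -0.20 and -0.35. Gpx7 was dim, with 4.86, 5.03 and 4.48 in normal sodium and 3.07, 4.59 and 3.50 in low sodium, and its groups overlapped. Its difference of -1.07 ± 0.59 did not pass and was -0.57 with a pseudocount of 16. Gpx3, the secreted glutathione peroxidase, was dim as well (0.88 ± 0.62). Cytosolic Prdx2 and mitochondrial Prdx3 had differences of -0.09 and -0.11, and the glutathione peroxidase genes Gpx1 and Gpx4 had 0.20 and 0.19, all without passing. Cat, which encodes catalase, and Sod2, the mitochondrial superoxide dismutase gene, had 0.29 and 0.03 and did not pass either.

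Of the 5 measured NADPH oxidase genes 1 rose, 1 fell and 3 did not pass. Ncf4 encodes p40phox, a cytosolic subunit, and had 12.13, 12.07 and 12.51 in normal sodium and 12.47, 12.41 and 12.87 in low sodium. It rose by 0.35 ± 0.06 (limma adjusted p = 0.0160), by 0.34 in replicates 1 and 2 and 0.37 in replicate 3. Rac2, the small GTPase of blood cells that switches the oxidase on, had 13.56, 13.53 and 13.79 in normal sodium and 13.18, 13.24 and 13.43 in low sodium. Every low-sodium array lay below every normal-sodium array, and Rac2 fell by 0.35 on the log2 scale (SE 0.06, limma adjusted p = 0.0136). Ncf1, the gene of the organiser p47phox, had 13.48, 13.48 and 13.34 in normal sodium and 13.33, 13.33 and 13.28 in low sodium. These groups did not overlap either, though by little, and the difference of -0.12 ± 0.06 did not pass. The membrane subunits Cyba (p22phox) and Cybb (gp91phox) had differences of 0.24 ± 0.07 and -0.08 ± 0.12 without passing. Pgd and Taldo1, of the pentose phosphate pathway that supplies NADPH, had -0.20 and 0.15, again without passing.

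**Figure D2:**
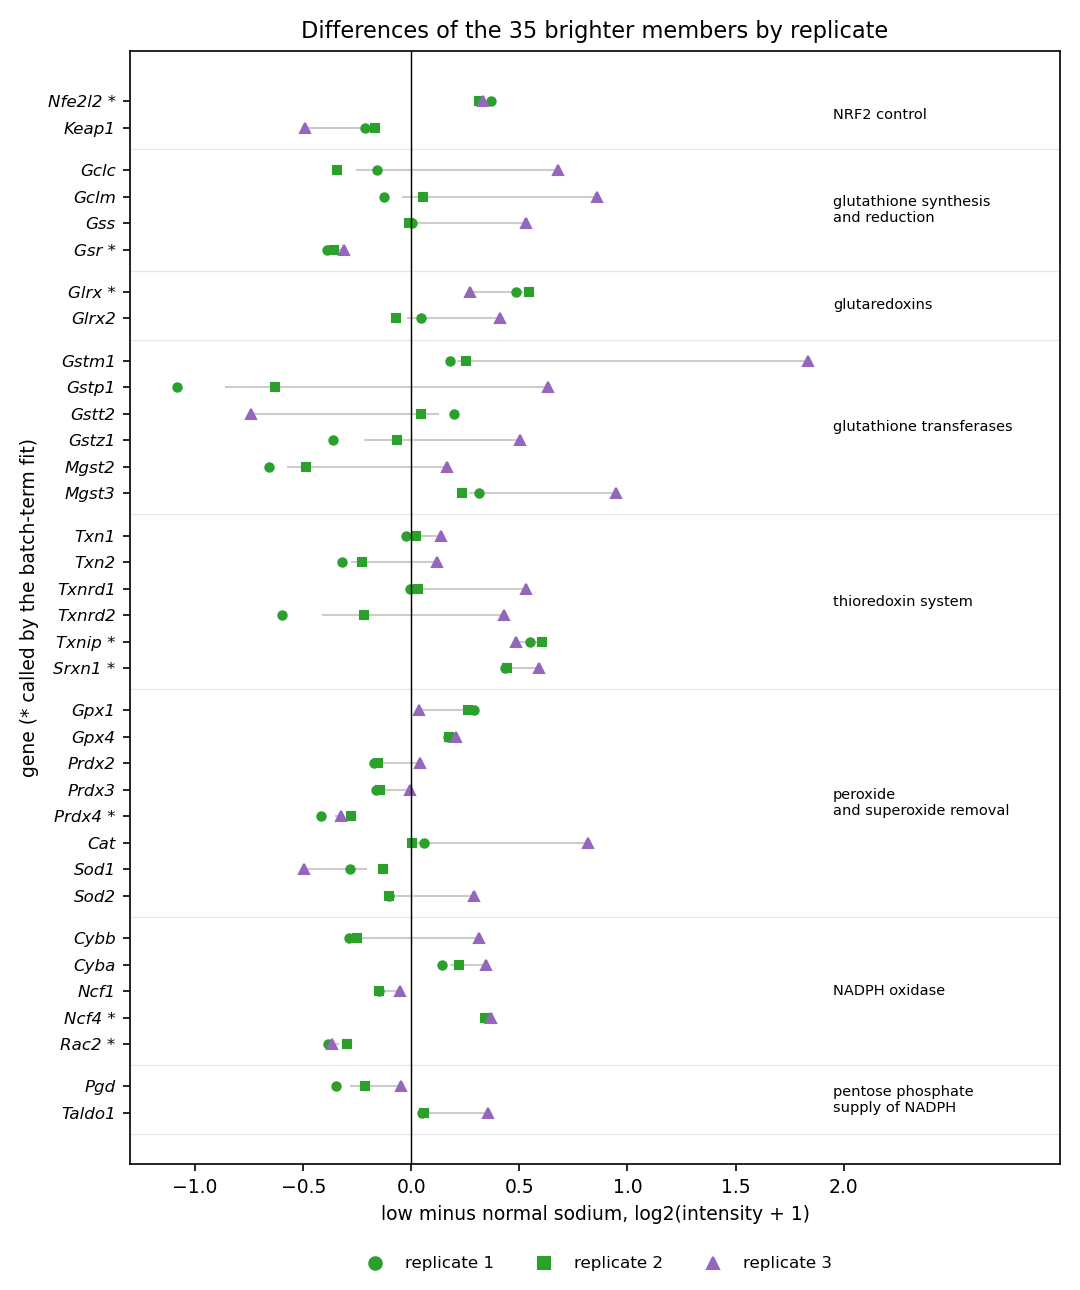
Low minus normal sodium in log2(intensity + 1) for the 35 bright members, 1 row per gene in the order of their roles; circles and squares are replicates 1 and 2, triangles are replicate 3, and grey lines join the mean of replicates 1 and 2 to replicate 3. In the 8 genes marked with an asterisk the 3 symbols lie on 1 side of 0, as they do in other members too, among them Cat and Gstm1. In Gclm, Cat and Gstm1 the triangle lies at 0.86, 0.82 and 1.83 and the other symbols between -0.13 and 0.25.

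The role groups were also described by their medians in each batch. The median difference over the 42 members was -0.03 in replicates 1 and 2 and 0.28 in replicate 3, against 0.02 and -0.06 over all genes. Glutathione synthesis and reduction had medians of -0.14 and 0.60, transferases -0.05 and 0.33, and the thioredoxin system 0.01 and 0.46. Peroxide and superoxide removal had -0.13 and 0.04, and the oxidase -0.15 and 0.31. Counted in the batch-term fit, 0 of 4 synthesis and reduction genes rose and 1 fell, 0 and 0 of 10 transferases, 2 and 0 of 6 thioredoxin genes, 0 and 1 of 10 removal genes and 1 and 1 of 5 oxidase genes. No difference between these groups was tested. Under median centring of the arrays the median of all genes moved to -0.10 in replicates 1 and 2 and 0.16 in replicate 3, and that of the members to -0.14 and 0.51.

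A fit with an interaction of medium and batch, chosen after these values had been seen, asked whether the difference between the media was itself different in replicate 3. It called 13 of the 42 members (31.0%) against 10.1% of all genes and 16.3% of bright genes. In all 13 the difference was higher in replicate 3, by 0.30 to 1.62 on the log2 scale, where 4.75% of all genes and 7.77% of bright genes were called in that direction. They were Gclc, Gclm, Glrx2, Gstm1, Gstp1, Mgst2, Mgst3, Txn2, Txnrd1, Cat, Sod2, Cybb and Taldo1. Other bright probe sets of Mgst3, Txn2 and Glrx2 did not go this way. In replicates 1 and 2 and in replicate 3, Mgst3 had 1.41 and 0.32 by its other probe set. Txn2 had -0.17 and -0.31 by one and -0.17 and -0.17 by another, and Glrx2 had 0.03 and -0.04 by one. All remaining probe sets of the 13 were higher in replicate 3. The fit takes its spread from replicates 1 and 2 and assumes that the lone replicate 3 array of each medium varies alike. With a constant prior it called 0 members, with median centring 26, with the mean of all probe sets 8, and without low-sodium replicate 1 it called 8. The shares of all genes called under these settings are not given here, so these counts cannot be set against them.

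Gclm had 12.11, 11.92 and 10.25 in normal sodium and 11.99, 11.97 and 11.11 in low sodium. Replicate 3 was the lowest array in both media, and more so in normal sodium, so that the media differed by -0.04 in replicates 1 and 2 and 0.86 in replicate 3 (difference between the batches of 0.90 ± 0.12, limma adjusted p = 0.00715). Cat, the catalase gene, had 12.32, 12.28 and 11.24 in normal sodium and 12.38, 12.28 and 12.06 in low sodium. Here too the normal-sodium array of replicate 3 was the one that stood apart. Txnrd1 had 13.08, 13.08 and 12.20 in normal sodium and 13.07, 13.11 and 12.73 in low sodium, and the normal-sodium array of replicate 3 was again the lowest. Gclc had 11.60, 11.68 and 11.02 in normal sodium and 11.44, 11.34 and 11.70 in low sodium, so the media differed in opposite directions in the 2 batches (-0.25 and 0.68).

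Gstp1, the transferase of the pi class, had 10.98, 10.82 and 10.25 in normal sodium and 9.89, 10.18 and 10.88 in low sodium. The media differed by -0.86 in replicates 1 and 2 but by 0.63 in replicate 3, so the sign turned. Cybb, the catalytic subunit of the oxidase, had 13.68, 13.60 and 13.89 in normal sodium and 13.39, 13.35 and 14.20 in low sodium, and its difference was -0.27 and 0.31 in the 2 batches. Mgst3, a microsomal transferase, differed the same way in both, by 0.27 and 0.95, but its other bright probe set had the larger difference in replicates 1 and 2 (1.41 and 0.32).

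**Figure D3:**
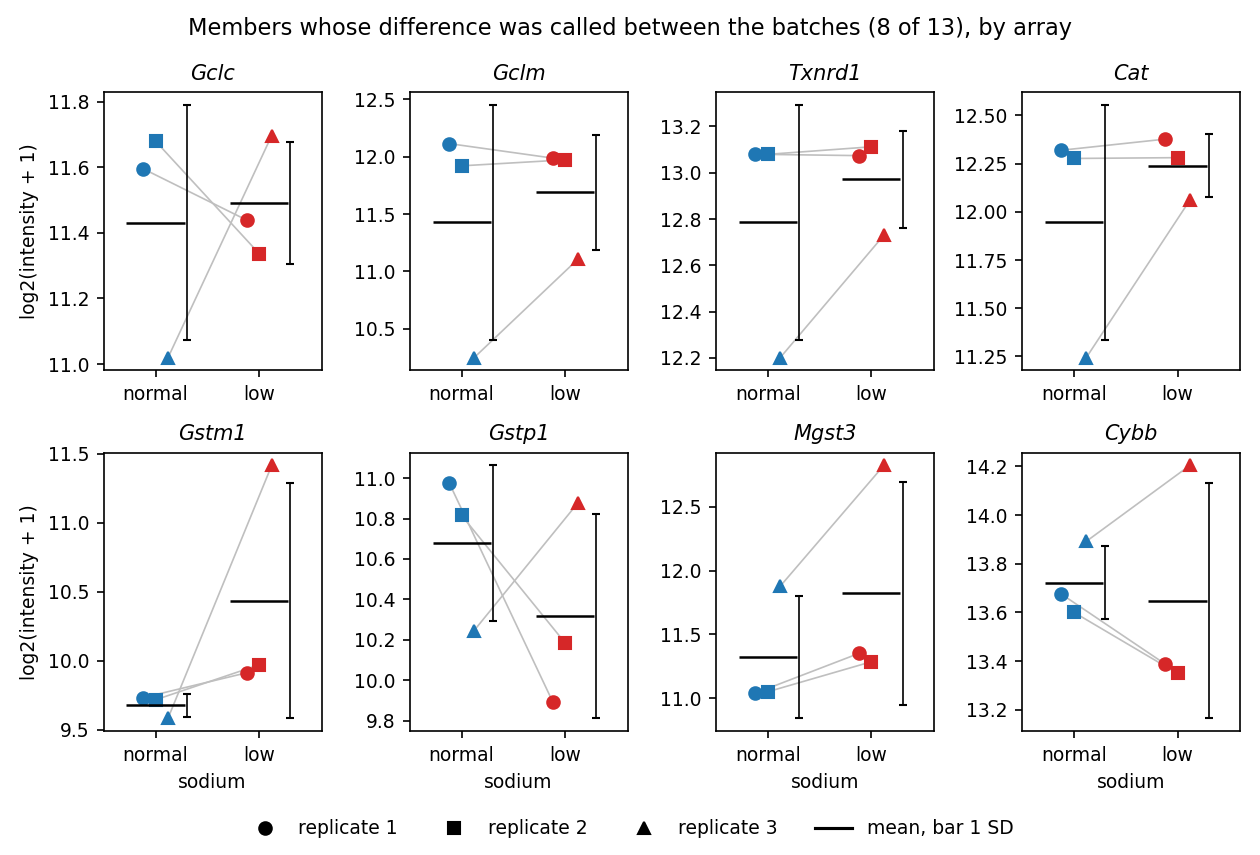
Log2(intensity + 1) on each array for the 8 members whose interaction of medium and batch was called with all arrays and without any 1 array of replicates 1 and 2; lines are group means, bars 1 SD, grey lines join arrays of the same replicate number, and each panel has its own axis. In Gclm, Txnrd1 and Cat the normal-sodium array of replicate 3 (blue triangle) is the lowest of the 6, and in Gstm1 the low-sodium array of replicate 3 (red triangle) is the highest.

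Replicate 3 also differed from the other arrays within each medium. Within normal sodium replicate 3 differed from the mean of replicates 1 and 2 by -1.77 in Gclm, -1.06 in Cat, -0.88 in Txnrd1, -0.84 in Srxn1 and 1.26 in Txnip, and within low sodium by -0.88, -0.27, -0.36, -0.69 and 1.17. The shifts of Srxn1 and Txnip differed between the media by 0.15 and -0.09, and those of Gclm, Cat and Txnrd1 by 0.90, 0.79 and 0.52. By arithmetic these are the same differences between the batches that the interaction fit estimates, so they are no separate result. The labels give no culture date or batch, so what sets replicate 3 apart was not tested.

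**Figure D4:**
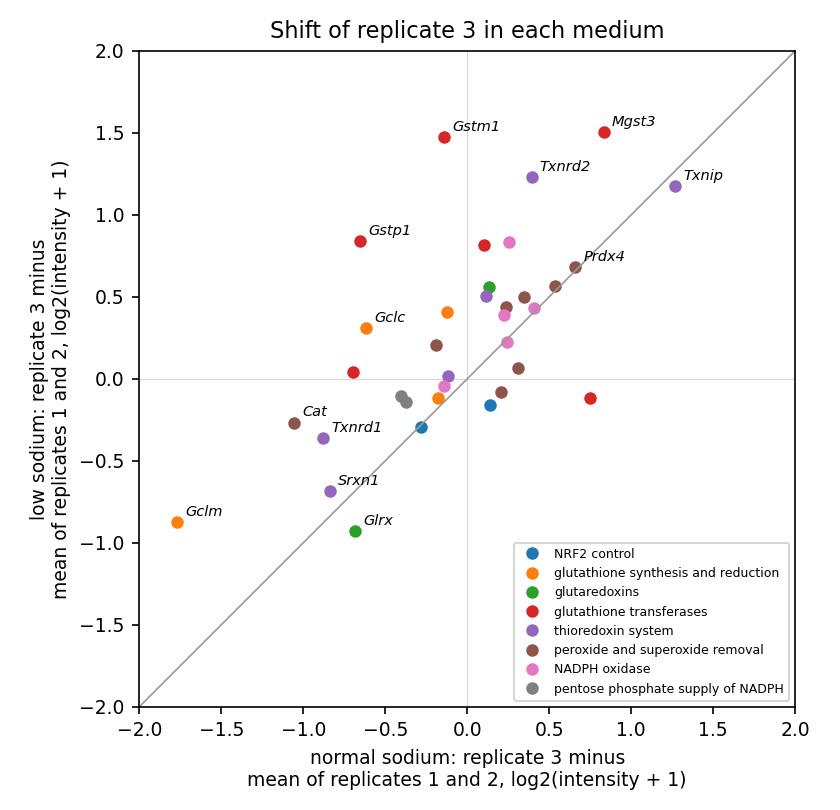
Replicate 3 minus the mean of replicates 1 and 2 in log2(intensity + 1), in normal sodium (x axis) and low sodium (y axis), 1 point for each of the 35 bright members, coloured by role; the grey diagonal marks equal shifts. Txnip, Srxn1 and Prdx4 lie near the diagonal, and Gstm1, Gstp1, Gclc, Gclm and Cat lie above it. The vertical distance from the diagonal is the difference between the batches that the interaction fit estimates.

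Other genes of these pathways were taken from a list of 33, of which 27 were measured. In the batch-term fit 4 rose (3.78% of all genes) and 1 fell (3.81%), and 22 did not pass. Sqstm1, the gene of the autophagy receptor p62, which binds KEAP1, had 13.07, 12.99 and 12.48 in normal sodium and 13.85, 13.88 and 13.67 in low sodium. All low-sodium arrays lay above all normal-sodium arrays, and Sqstm1 rose by 0.95 ± 0.08 (limma adjusted p = 0.00159), more than any member that was called. Hmox1, the haem oxygenase gene and an NRF2 target, rose by 0.67 ± 0.13 (0.45 in replicates 1 and 2, 1.12 in replicate 3). Slc3a2, the heavy chain of the cystine transporter, rose by 0.50 ± 0.11, and the omega-class transferase gene Gsto1 by 0.37 ± 0.06. Idh1, a cytosolic source of NADPH, fell by 0.61 on the log2 scale (SE 0.11), the media differing by -0.78 in replicates 1 and 2 as against -0.27 in replicate 3. With the replicate number as a block Sqstm1 was the 1 gene of these 27 that was called.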

How the data were processed

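Biotin-labelled cDNA of 6 cultures was hybridised to Affymetrix arrays, per the labels. The deposited values are linear intensities for 45101 probe sets. The submitters' processing notes name Partek, and no source used here states how probes were summarised. The mean of each array's intensities, trimmed at percentiles 2 and 98, was 500.003. Here log2(intensity + 1) was taken, which understates differences of dim probe sets. After 64 control probe sets were left out, 34945 of 45037 carried 1 gene, 932 several and 9160 none. A gene's brightest probe set by mean stood for it, giving 18193 genes, named through Entrez identifiers and RefSeq (GRCm38.p6).

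Both fits used limma 3.58.1 in R 4.3.3 over all genes (two-sided, Benjamini-Hochberg). P-values of the plain fit rest on the spread between the 3 cultures of each medium. Those of the batch-term fit rest on the spread left after the shift of replicate 3 is taken out. Both use a variance prior drawn from all genes. Each array's value is given for members that were called, whose groups did not overlap or that differed at least 2-fold. Gclc, Gclm, Gstp1, Txnrd1, Cat and Cybb were added after their values were seen. The members, lists and fits were chosen with earlier results of these data known. Same-numbered arrays deviated together (correlations of 0.49, 0.48 and 0.61 over brighter genes). Replicates 1 and 2 did so as much across numbers (0.51 and 0.48). These values set replicate 3 apart in both media but do not show that the numbers 1 and 2 mark pairs. Arrays were also simulated for the 18193 genes with a batch shift. Changes were given to genes with a mean log2 value no lower than 7.12, the median over genes. Of these the plain fit found 0% of those given a log2 change of 1 and 48.7% of those given 2. The batch-term fit found 71.7% and 90.7%, with 3.37% of its calls false. The members it called in the measured arrays differed by less, from 0.34 for Nfe2l2 to 0.55 for Txnip in size. Recovery of changes this small was not tested. The false share holds for arrays simulated with a batch shift. In the measured arrays the interaction of medium and batch was called in 10.1% of all genes. What such an interaction does to the false share was not tested. The number of arrays limits the precision.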

Additional observations from a re-analysis of the deposited data

How the results depend on the processing

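The plain limma fit called 0 members under each alternative tried and 1 gene of 18193. That count was 40 with a trended prior, 4 with a pseudocount of 16, 16 with a filter at the 50th percentile, and 0 with quantile normalisation, with median centring, with the replicate block and with replicates 1 and 2 alone. Leaving out 1 array gave 0 to 3.

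The batch-term fit called 1382 genes and 8 members (5 higher, 3 lower). With a constant prior it called 2 genes and 0 members (0 higher, 0 lower), and 0 of the other pathway genes in place of 5. With median centring it called 659 genes and 1 member (1 higher, 0 lower), and 1 other pathway gene. With the mean of all probe sets it called 822 genes and 4 members, 0 of them lower. With the replicate block it called 544 genes and 2 members (2 higher, 0 lower), and 1 other pathway gene. With replicates 1 and 2 alone it called 2705 genes and 21 members (9 higher, 12 lower), and 9 other pathway genes. With a filter at the 50th percentile it called 1876 of 9097 genes (20.6%) and 12 of 34 members (35.3%), 8 of them higher. Leaving out 1 array gave 373 to 2682 genes, 1 to 21 members, 1 to 9 of them higher and 0 to 12 lower, and 1 to 9 other pathway genes; the high ends are those without a replicate 3 array. Prdx4 changed sign with the mean of its probe sets (a difference of 0.0322, limma adjusted p = 0.919), and no other called member changed sign under any alternative. The 13 members with a difference between the batches were 0 with a constant prior, 26 with median centring and 8 with the mean of all probe sets, and 8 to 11 without 1 array of replicates 1 and 2. These counts again stand without the shares of all genes. The cause of these changes was not tested.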

Other observations

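Slc7a11 and Chac1 belong to glutathione supply and breakdown, and their values were picked out after they had been seen. Slc7a11, the cystine transporter gene, had log2 intensities of 9.38, 9.19 and 6.43 in normal sodium and 8.49, 8.68 and 7.87 in low sodium. The media differed by -0.70 in replicates 1 and 2 but by 1.44 in replicate 3, the same order of batches as in Gclc. Chac1, which degrades glutathione, had 10.11, 10.12 and 7.28 in normal sodium and 10.69, 10.67 and 9.37 in low sodium. Its difference of 1.07 ± 0.28 in the batch-term fit did not pass (limma adjusted p = 0.0624), with 0.56 in replicates 1 and 2 and 2.09 in replicate 3.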
